A study of Mus musculus with 12 samples.

Results

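The STAT and SOCS genes described here are the 7 rows of the gene count files whose Ensembl identifiers map to the mouse symbols Stat2, Stat3, Stat4, Stat6, Socs1, Socs2 and Socs3, out of 49315 genes counted. Other genes of the STAT family were not analysed here. RNA was sequenced from 12 subcutaneous TRAMP-C2 tumors, which grow from a mouse prostate cancer cell line, in male C57BL/6J mice aged 6 to 8 weeks. Treatment into the tumor began at a volume of about 200 mm3, and tumors were collected on day 6. The groups of 3 tumors were cyto-IL-15, an interleukin-15 modified to attach to cell membranes (2 doses of 10 µg), the STING agonist ADU-S100 (3 doses of 50 µg), the combination of both agents, and the vehicle HBSS (3 doses of 50 µl). Tumors are called by group and label, and a level is given in CPM, the reads of a gene scaled to a common library size, normalized by the trimmed mean of M-values (TMM).

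The members are ENSMUSG00000040033 (Stat2), ENSMUSG00000004040 (Stat3), ENSMUSG00000062939 (Stat4), ENSMUSG00000002147 (Stat6), ENSMUSG00000038037 (Socs1), ENSMUSG00000020027 (Socs2) and ENSMUSG00000053113 (Socs3). In build GRCm38, Stat4 spans chr1:51987148-52107189 on the plus strand, and Socs1 (chr16:10783808-10785536), Socs2 (chr10:95385362-95417180) and Socs3 (chr11:117966079-117970047) lie on the minus strand. Stat4 overlaps the genes Gm28177 and Gm3940, and the positions of Stat2, Stat3 and Stat6 are given with their results.

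STAT proteins are latent transcription factors that Janus kinases phosphorylate at an occupied cytokine receptor, after which they enter the nucleus. Stat2 acts mainly in the type I interferon response, where it joins Irf9 in the complex that binds the interferon-stimulated response element (ISRE). Stat3 is activated through gp130 receptors by interleukin-6 type cytokines, Stat4 by interleukin-12 in T and NK cells, and Stat6 by interleukins 4 and 13. SOCS proteins are induced by the cytokines they restrain and close a negative feedback loop: Socs1 blocks interferon signaling, Socs3 blocks gp130 signaling, and Socs2 restrains the growth hormone receptor. Phosphorylation, which switches STAT proteins on, is not seen in RNA.

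Several of these genes are known targets of STAT factors, and the sequences before their start sites are shown for the members whose levels the results turn on. RefSeq promoters (build GRCm38.p6, 250 bases before each start and 50 after) matched 6 of the 7 symbols, the exception being Socs2, and Stat4 had an outer and an inner start. They were searched on both strands for the ISRE core GAAANNGAA (reverse complement TTCNNTTTC) and for the gamma-activated site (GAS) TTCNNNGAA. Of 32851 RefSeq promoters, 8.56% held the ISRE core and 8.30% held the GAS letters. The ISRE core was found in Stat2, in Socs1, where 2 copies overlap, and at the inner start of Stat4. The GAS letters were found in Socs3 only. Neither was found in the windows of Stat3, Stat6 or the outer start of Stat4. The lines below give, 5′ to 3′ on the strand of the gene, the 250 bases before the start of Stat2 (chr10:128270248-128270497, plus strand) and of Socs1 (chr16:10785537-10785786, minus strand), and 29 bases around the match in Socs3 (chr11:117969502-117969530, minus strand) and at the inner start of Stat4 (chr1:52008133-52008161, plus strand). Capitals mark the matching letters.
Stat2: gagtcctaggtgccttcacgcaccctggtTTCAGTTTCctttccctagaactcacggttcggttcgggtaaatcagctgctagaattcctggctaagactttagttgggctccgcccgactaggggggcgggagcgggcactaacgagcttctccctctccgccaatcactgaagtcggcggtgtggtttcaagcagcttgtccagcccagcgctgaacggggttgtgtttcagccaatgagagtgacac
Socs1: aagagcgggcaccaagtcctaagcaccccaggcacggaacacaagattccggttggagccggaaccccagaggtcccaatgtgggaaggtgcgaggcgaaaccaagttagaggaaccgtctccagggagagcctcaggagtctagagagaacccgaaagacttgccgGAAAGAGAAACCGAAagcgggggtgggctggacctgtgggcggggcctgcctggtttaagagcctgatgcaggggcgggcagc
Socs3: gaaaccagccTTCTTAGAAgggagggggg
Stat4: aatgtcttcaGAAAGTGAAatttagaacg
The matches begin 221 bases before the start in Stat2, 83 and 77 bases before it in Socs1, 154 in Socs3 and 97 at the inner start of Stat4. The RefSeq starts of Socs3 and of the inner Stat4 promoter lie 681 and 21092 bases inside the span over which these genes were counted, and that of Stat2 lies 78 bases upstream of the counted span. A match of letters describes the sequence and does not show that a factor binds there.

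**Figure D1:**
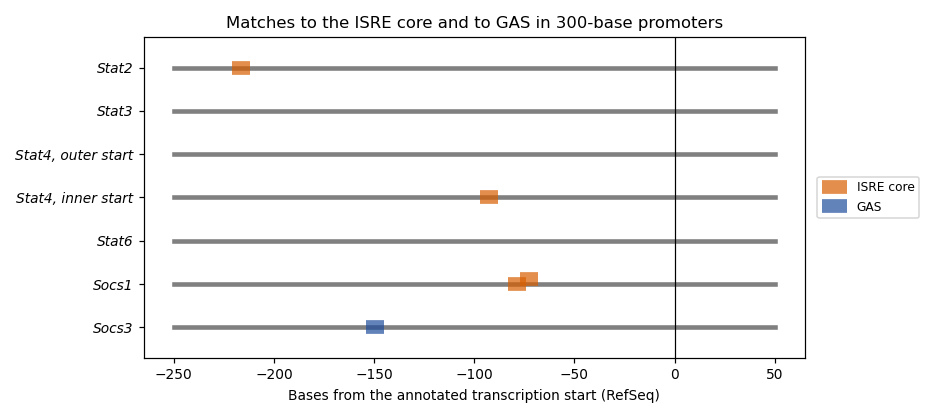
Places of the ISRE core and GAS letters in the 300 bases around 7 RefSeq start sites of 6 members; the horizontal axis is the distance from the start in bases, and each block covers the 9 bases of a match. The blocks of Stat2 and Socs1 lie 221 bases and 83 to 77 bases before the start, and the windows of Stat3, Stat6 and the outer Stat4 start hold no block.

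Total counts were between 48772204 and 103700199 per tumor, and every member passed the filter on low counts in every comparison. Read counts per tumor were lowest for Stat4, at 105 to 770, and highest for Stat3, at 7144 to 19469. Over all genes, tumors 13 (cyto-IL-15) and 28LL (combination) stood apart, since the correlation of log2 CPM between the pair, 0.899, was the lowest of all. The tumors were also checked against their label: among markers of prostate tumor epithelium, the prostate-specific Pbsn was at or near 0 (at most 0.0163 CPM), and the epithelial keratin Krt18 was at most 6.09 CPM. Values below rest on 3 tumors a group, and values without tumors 13 or 28LL are given beside those that these tumors move most.

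Stat2, the interferon-response STAT, was higher in tumors given ADU-S100 and was the only member called against HBSS. Its level was 150.2, 151 and 186 CPM in ADU-S100 tumors 17LL, 18R and 22LR, 71.2, 116 and 263 CPM in combination tumors 20L, 22 and 28LL, 53.6, 35.2 and 46.9 CPM in cyto-IL-15 tumors 9R, 13 and 20LL, and 59.8, 47.2 and 59.3 CPM in HBSS tumors 19, 22R and 22LL. All 6 tumors that received ADU-S100 lay above all 6 that did not, with 71.2 CPM as the lowest of the first set and 59.8 CPM as the highest of the second. Group means were 162 ± 20.1 CPM with ADU-S100, 150.2 ± 100.3 CPM with the combination, 45.2 ± 9.31 CPM with cyto-IL-15 and 55.4 ± 7.15 CPM with HBSS (SD, n = 3 each). In these bulk samples, more cells that express a gene and more RNA per cell cannot be told apart.

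Against HBSS, Stat2 rose in ADU-S100 tumors by 1.55 ± 0.14 on the log2 scale (standard error), a 2.94-fold difference with an adjusted p of 0.00116 (edgeR quasi-likelihood test), which ranked 28 of 18911 genes by p. A gene was called when its adjusted p was under 0.05 and its absolute log2 fold change above 1. Stat2 was the only member called in this comparison, in which 667 genes or 3.53% of those tested were called, and it was also the only member among the 6.19% with an adjusted p under 0.05 at any fold. The call stood without any 1 of the 6 tumors (log2 fold change of 1.42 to 1.61, adjusted p up to 0.00988). With all 12 tumors in one edgeR fit, which shares their larger spread, the fold change was 1.55 and the adjusted p 0.297.

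The combination gave Stat2 a mean difference of similar size but a wide spread. Against HBSS it was 1.46 ± 0.47 on the log2 scale with an adjusted p of 0.221, and without tumor 28LL it was 0.76 with an adjusted p of 0.116. The ranges of combination and ADU-S100 tumors overlapped. Cyto-IL-15 against HBSS tumors gave -0.30 ± 0.21 with an adjusted p of 0.898, and their ranges overlapped. ADU-S100 against cyto-IL-15 gave 1.82 ± 0.21 with an adjusted p of 0.0541, which just missed the threshold, and without cyto-IL-15 tumor 13 it was 1.70 with an adjusted p of 0.00500. In that comparison 16 genes or 0.0855% were called, none of them a member.

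Socs1, the feedback inhibitor of interferon signaling, was also higher in tumors given ADU-S100, but its highest group mean was that of the combination. Its difference from HBSS was smaller than that of Stat2 with ADU-S100 alone and of similar size with the combination. It was at 29.2, 33.4 and 26.5 CPM in ADU-S100 tumors 17LL, 18R and 22LR, at 26.5, 39.3 and 90.0 CPM in combination tumors 20L, 22 and 28LL, at 17.3, 16.6 and 21.2 CPM in cyto-IL-15 tumors 9R, 13 and 20LL, and at 23.7, 13.6 and 18.6 CPM in HBSS tumors 19, 22R and 22LL. Here too the 6 tumors with ADU-S100 did not overlap the 6 without, although the gap was narrow, 26.5 against 23.7 CPM. Tumor 28LL stood 2.73-fold above the mean of the other two combination tumors. The log2 difference from HBSS was 0.67 ± 0.20 with ADU-S100 (adjusted p = 0.0783) and 1.495 ± 0.49 with the combination (adjusted p = 0.219), and neither was called. Without 28LL the combination value was 0.82 (adjusted p = 0.142). Cyto-IL-15 against HBSS gave -0.03 ± 0.24. The genes most like Socs1 over 12 tumors were Tmem160, Lin37 and Gm49342 (r on log2 CPM of 0.982, 0.976 and 0.970), and without tumors 13 and 28LL they were Bola1, Bcl2a1d and Psmb10, an interferon-inducible proteasome subunit (r = 0.976, 0.974 and 0.971 over 10 tumors).

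Over all 12 tumors, the difference between tumors with and without ADU-S100, averaged over both levels of cyto-IL-15, was 1.64 ± 0.27 for Stat2 (adjusted p = 0.0235) and 1.09 ± 0.27 for Socs1 (adjusted p = 0.0776). Stat2 was the only member among the 165 genes, or 0.820%, called for this contrast. The call was lost without any 1 of 8 tumors, namely HBSS 19, 22R or 22LL, cyto-IL-15 9R or 20LL, or ADU-S100 17LL, 18R or 22LR, where the log2 value stayed between 1.57 and 1.69 and the adjusted p was 0.0558 to 0.0958. Socs1 was called as well without combination tumor 20L (1.22, adjusted p = 0.0231), and without tumors 13 and 28LL its value was 0.71 (adjusted p = 0.0337), below the fold threshold. An exact two-sided permutation test within the 2 levels of cyto-IL-15, with 400 arrangements, gave p = 0.005 for Stat2 (1.54) and p = 0.005 for Socs1 (0.99), the smallest p these arrangements allow, on mean log2(CPM + 0.5). Since the tumors with and without ADU-S100 did not overlap for either gene, this p was fixed by that separation and adds nothing to it. The exact p of the other members were 0.185 for Stat6 (0.15), 0.425 for Socs3 (0.37), 0.475 for Stat4 (0.28), 0.545 for Socs2 (0.25) and 0.69 for Stat3 (-0.07). The 7 genes were chosen with earlier results of these data known. The exact p were not adjusted over them and are given as a description. No overlap between the 6 tumors with and the 6 without ADU-S100 was shown by 703 genes, or 3.49% of 20132.

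**Figure D2:**
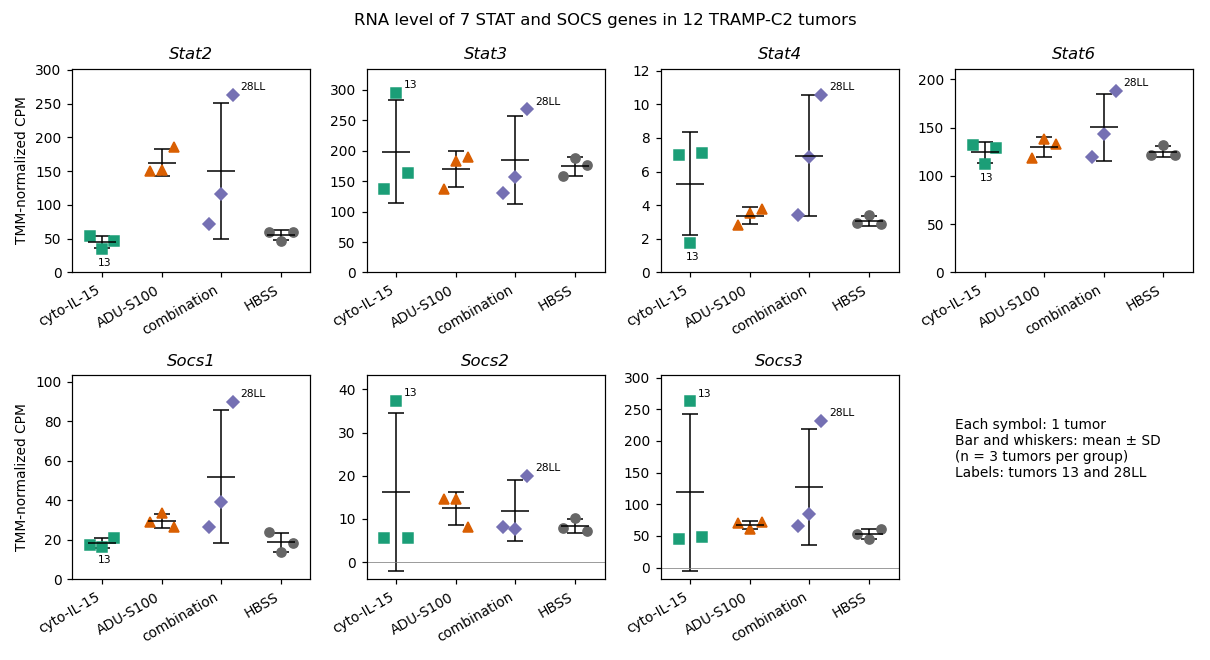
TMM-normalized CPM of the 7 members in 12 tumors, by treatment; each symbol is a tumor, the bar and whiskers are the mean and SD of 3 tumors, and labels mark tumors 13 (cyto-IL-15) and 28LL (combination). Stat2 and Socs1 are higher in every tumor given ADU-S100, alone or combined, than in every other tumor, and the wide bars of Socs2 and Socs3 come with the labelled tumors.

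Partners and known targets of Stat2 were also called higher with ADU-S100 than with HBSS, where 3.53% of all genes tested were called. The list of 10 genes (Irf9, Irf7, Isg15, Ifit1, Ifit3, Mx1, Oas1a, Oas2, Rsad2 and Bst2) was called higher in ADU-S100 than in HBSS tumors for 10 of 10, with a median log2 fold change of 2.36, against 0.03 over all genes tested. This list was chosen with earlier results of these data known, so its count is a description and no separate support for Stat2. The same limit holds for the counts of the other gene lists below. Irf9, which joins Stat2 in its complex, rose by 1.32 ± 0.12 (adjusted p = 0.00116), Isg15, a ubiquitin-like modifier, by 2.97 ± 0.23 (adjusted p = 0.00111), and Bst2, which tethers virus particles, by 1.86 ± 0.15 (adjusted p = 0.000888). Ifit1, which binds foreign RNA caps, rose by 2.57 ± 0.23 (adjusted p = 0.00138). Summed over the list, the level was 1382 to 1785 CPM in ADU-S100 tumors, 693 to 2675 CPM in combination tumors, 186 to 311 CPM in cyto-IL-15 tumors and 259 to 401 CPM in HBSS tumors. With all 12 tumors in one fit, 0 of the 10 genes were called, as were 0 genes in all. Among all genes averaging 1 CPM or more, those most like Stat2 across the 12 tumors were Ifit3, Parp9 and Dhx58 (Pearson r on log2 CPM of 0.994, 0.992 and 0.990), and without tumors 13 and 28LL they were Phf11d, Ifit3 and Parp9, all at 0.991 or above over 10 tumors.

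Markers of other cells differed between the same groups, and 3.53% of all genes tested were called in ADU-S100 against HBSS tumors. All 6 NK cell markers were called higher in ADU-S100 than in HBSS tumors, with a summed level of 59.9 to 67.1 CPM in ADU-S100, 64.8 to 497 CPM in combination, 20.8 to 91.2 CPM in cyto-IL-15 and 12.5 to 20.6 CPM in HBSS tumors. Of 6 neutrophil markers tested of 7, 4 were called higher, as were 4 of 6 skeletal muscle markers, whose sum was 124 to 1340.1 CPM in ADU-S100 tumors, 39.2 to 3292 CPM in combination tumors, 3.15 to 547 CPM in cyto-IL-15 tumors and 2.83 to 3.81 CPM in HBSS tumors. No T cell marker of 6 was called, and no NK or T cell marker was at 0 in any tumor. The part of these cells in the levels of Stat2 and Socs1 was not tested.

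The highest levels of Stat4 were in 4 of the 6 tumors given cyto-IL-15, alone or combined. It was at 6.98, 1.74 and 7.12 CPM in cyto-IL-15 tumors 9R, 13 and 20LL, at 3.42, 6.86 and 10.6 CPM in combination tumors 20L, 22 and 28LL, at 2.82, 3.53 and 3.80 CPM in ADU-S100 tumors 17LL, 18R and 22LR, and at 2.94, 3.40 and 2.85 CPM in HBSS tumors 19, 22R and 22LL. The cyto-IL-15 tumors thus held both the lowest value of the series and 2 of the 4 highest. Against HBSS the log2 difference was 0.79 ± 0.54 with cyto-IL-15 (adjusted p = 0.898), and without tumor 13 it was 1.21 ± 0.21 (adjusted p = 0.0507). It was 1.20 ± 0.43 with the combination (adjusted p = 0.238), or 0.75 without 28LL (adjusted p = 0.221), and 0.15 ± 0.21 with ADU-S100 (adjusted p = 0.721). Combination against ADU-S100 tumors gave 1.05 ± 0.44 (adjusted p = 0.884), or 0.60 without 28LL, and the cyto-IL-15 difference over 12 tumors was 0.91 ± 0.36 (adjusted p = 0.652), so no difference of Stat4 was called.

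T and NK cells are the known main sources of Stat4, and their markers were highest in the tumors with the highest Stat4. The summed level of 6 T cell markers (Cd3e, Cd3d, Cd3g, Cd8a, Cd4 and Trac) was 94.7, 17.9 and 115 CPM in cyto-IL-15 tumors 9R, 13 and 20LL, 46.4, 114 and 136 CPM in combination tumors 20L, 22 and 28LL, 44.5, 69.5 and 45.3 CPM in ADU-S100 tumors 17LL, 18R and 22LR, and 47.8, 26.8 and 33.9 CPM in HBSS tumors 19, 22R and 22LL. The 4 tumors with the highest Stat4 were the 4 with the highest T cell sum, and tumor 13 was lowest in both. These 4 tumors also had the 4 highest sums of the 6 NK cell markers, 77.8 and 91.2 CPM in cyto-IL-15 tumors 9R and 20LL and 148 and 497 CPM in combination tumors 22 and 28LL, whereas the lowest NK sum was that of HBSS tumor 22R, 12.5 CPM, with 20.8 CPM in tumor 13. NK sums were also higher in ADU-S100 tumors (59.9 to 67.1 CPM) than in HBSS tumors (12.5 to 20.6 CPM), while the Stat4 ranges of these groups overlapped. Combination tumor 20L had an NK sum of 64.8 CPM with Stat4 at 3.42 CPM. The part of T and NK cells in the level of Stat4 was not tested. The genes most like Stat4 over 12 tumors were Cd226, an activating receptor of T and NK cells, Fam169b and Ikzf3, a lymphoid transcription factor (r = 0.981, 0.972 and 0.972), and without tumors 13 and 28LL they were Clec2i, Cd226 and Fam169b (r = 0.976, 0.959 and 0.956 over 10 tumors). Such correlations come from the same libraries as the levels and are given as a description.

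Among 6 known targets of Stat4, the median log2 fold change in ADU-S100 against HBSS tumors was 1.21. Of these targets, 3 were called higher, beside 3.53% of all genes tested that were called in either direction. They were Ifng, which encodes interferon-γ (2.34 ± 0.30, adjusted p = 0.00414), Il12rb2, a chain of the interleukin-12 receptor (1.79 ± 0.31, adjusted p = 0.0155), and Tbx21, the T-bet factor of type 1 lymphocytes (1.48 ± 0.27, adjusted p = 0.0178). The count was 1 without HBSS tumor 19, 22R or 22LL or ADU-S100 tumor 18R, and 0 with 12 tumors in one fit. Ifng was at 1.94 to 2.18 CPM in ADU-S100 tumors, 1.11 to 10.4 CPM in combination tumors, 0.464 to 1.52 CPM in cyto-IL-15 tumors and 0.281 to 0.472 CPM in HBSS tumors. In ADU-S100 against HBSS tumors all 6 NK cell markers were also called higher, while Stat4 itself differed by 0.15 ± 0.21. The part of NK and T cells in the levels of these targets was not tested.

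Socs3, the inhibitor of gp130 signaling, was marked by the same 2 outlying tumors. Its level was 45.6, 262 and 48.8 CPM in cyto-IL-15 tumors 9R, 13 and 20LL, 66.0, 84.2 and 232 CPM in combination tumors 20L, 22 and 28LL, 70.3, 60.1 and 72.3 CPM in ADU-S100 tumors 17LL, 18R and 22LR, and 53.1, 44.4 and 60.1 CPM in HBSS tumors 19, 22R and 22LL. Tumor 13 was 5.56-fold above the mean of the other two cyto-IL-15 tumors, and 28LL was 3.09-fold above the other two combination tumors. The remaining ADU-S100 and combination tumors lay between 60.1 and 84.2 CPM, and the highest HBSS value was also 60.1 CPM. Against HBSS the log2 difference was 1.16 ± 0.70 with cyto-IL-15 (adjusted p = 0.898), which turned to -0.15 without tumor 13, 0.37 ± 0.14 with ADU-S100 (adjusted p = 0.156), and 1.30 ± 0.49 with the combination (adjusted p = 0.248), which was 0.52 without 28LL. Combination against ADU-S100 gave 0.92 ± 0.47 (adjusted p = 0.884), or 0.15 without 28LL. The cyto-IL-15 difference over 12 tumors was 1.05 ± 0.46 (adjusted p = 0.652), or 0.39 without tumor 13 and 0.66 without 28LL.

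Stat3, which drives Socs3 and is restrained by it, varied less. It was at 138, 295 and 163 CPM in cyto-IL-15 tumors 9R, 13 and 20LL, at 136, 183 and 190.0 CPM in ADU-S100 tumors 17LL, 18R and 22LR, at 130.5, 156 and 268 CPM in combination tumors 20L, 22 and 28LL, and at 158, 188 and 177 CPM in HBSS tumors 19, 22R and 22LL. Its highest tumors were again 13 and 28LL, and all groups overlapped. From HBSS, Stat3 differed on the log2 scale by 0.18 ± 0.29 (cyto-IL-15), -0.04 ± 0.14 (ADU-S100) and 0.10 ± 0.29 (combination), with adjusted p of 0.922, 0.906 and 0.857. Without tumor 13 the cyto-IL-15 value was -0.21, and without 28LL the combination value was -0.28. The genes most like Stat3 were Nod1, Csnk1a1 and Cpox over 12 tumors (r = 0.956, 0.951 and 0.934) and Steap3, Crim1 and Adamtsl4 without tumors 13 and 28LL (r = 0.951, 0.942 and 0.937 over 10 tumors). The span of Stat3 (chr11:100885098-100939540, minus strand) overlaps a gene on the other strand, and whether counting used strand is not given in the sources used here.

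The median log2 fold change of 10 known Stat3 targets in ADU-S100 against HBSS tumors was 0.60. Of these, 2 were called higher, beside 3.53% of all genes tested that were called in either direction. These were the acute-phase genes Lcn2 (4.82 ± 0.72, adjusted p = 0.0156) and Saa3 (6.48 ± 1.06, adjusted p = 0.0370), which are low in resting tissue. Lcn2 was at 1.94 to 12.1 CPM in ADU-S100 tumors and at 0.197 to 0.309 CPM in HBSS tumors, and Saa3 at 19.1 to 99.1 CPM in ADU-S100 tumors and at 0.268 to 1.59 CPM in HBSS tumors. The count was 0 without HBSS tumor 19, 22R or 22LL, 1 without ADU-S100 tumor 17LL or 22LR, and 0 with 12 tumors in one fit or with no filter on low counts. The summed level of the list was 2579 CPM in combination tumor 28LL, 983 CPM in cyto-IL-15 tumor 13 and between 681 and 1089.8 CPM in the other tumors. Tumor 13, with the highest Socs3, thus lay within the range of the other tumors for this list. Among tumors without ADU-S100 it was the highest, against 721 to 741 CPM in HBSS tumors and 681 and 833 CPM in cyto-IL-15 tumors 9R and 20LL. Ligands of gp130 receptors, named after their values were seen, also differed between the outlying tumors. Tumor 13 had the highest level of Lif (31.5 CPM, against at most 13.6 CPM elsewhere), whereas 28LL had the highest levels of Il6 (10.2 CPM, at most 1.88 CPM elsewhere) and Osm (20.6 CPM, at most 3.74 CPM elsewhere). Tumor 28LL also had the highest sums of neutrophil markers (270 CPM, at most 62.4 CPM elsewhere) and of skeletal muscle markers (3292 CPM). In tumor 13 these sums were 14.3 and 3.15 CPM. The part of these ligands and cells in the level of Socs3 was not tested. The genes most like Socs3 over 12 tumors were Ino80c, Eml2 and Gm16286 (r = 0.989, 0.976 and 0.970). Without tumors 13 and 28LL they were Msra, Gm49342 and Acod1 (r = 0.937, 0.923 and 0.913 over 10 tumors), with no gene in common.

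**Figure D3:**
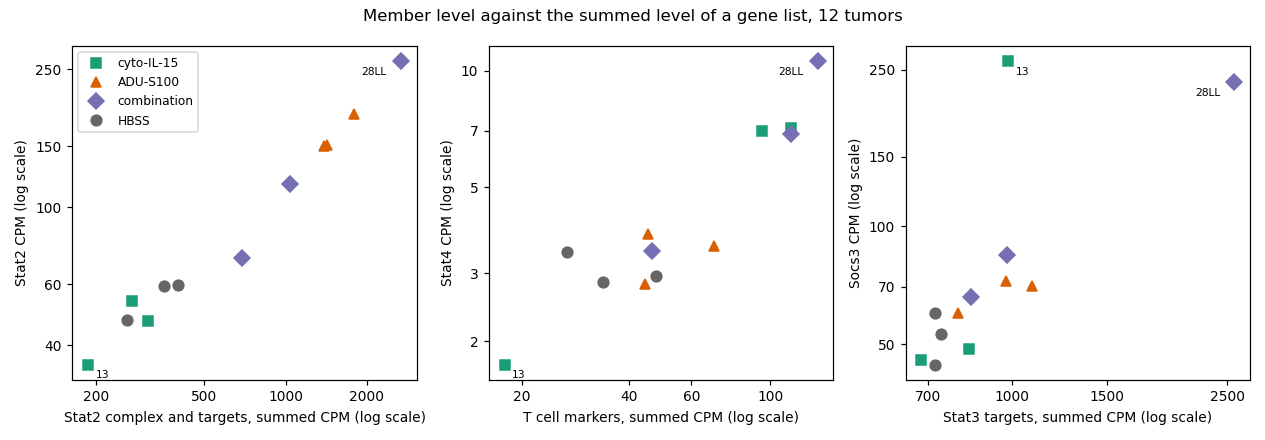
CPM of Stat2, Stat4 and Socs3 (vertical, log scale) against the summed CPM of Stat2 partners and targets, of T cell markers and of Stat3 targets (horizontal, log scale) in 12 tumors; colors and symbols are treatment groups. Stat2 increases along its list from cyto-IL-15 tumor 13 (186 summed CPM) to combination tumor 28LL (2675), the 4 tumors of highest Stat4 have the highest T cell sums, and tumor 13 lies far above the other tumors with a similar Stat3 target sum.

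Socs2, which restrains growth hormone signaling, was low in most tumors. It was at 5.67, 37.3 and 5.69 CPM in cyto-IL-15 tumors 9R, 13 and 20LL, at 14.5, 14.7 and 8.04 CPM in ADU-S100 tumors 17LL, 18R and 22LR, at 8.09, 7.71 and 20.0 CPM in combination tumors 20L, 22 and 28LL, and at 7.95, 10.2 and 7.13 CPM in HBSS tumors 19, 22R and 22LL. Tumor 13 was 6.58-fold above the mean of its group's other two tumors, which held the 2 lowest values of the series. Against HBSS the log2 difference was 0.93 ± 0.77 with cyto-IL-15 (adjusted p = 0.898), or -0.56 without tumor 13, 0.56 ± 0.25 with ADU-S100 (adjusted p = 0.215), and 0.52 ± 0.43 with the combination (adjusted p = 0.523), or -0.09 without 28LL. The pooled ADU-S100 difference of the permutation test, 0.25, was 0.69 without tumor 13 (exact permutation p = 0.04). Genes most like Socs2 were Poli, Mlx and Actg2 over 12 tumors (r = 0.962, 0.958 and 0.942) and Poli, Robo4 and Erg without tumors 13 and 28LL (r = 0.934, 0.923 and 0.892 over 10 tumors). The receptor gene Ghr, named after its values were seen, was also highest in tumor 13, at 215 CPM, and at 43.2 to 105 CPM elsewhere.

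Stat6, the factor of interleukin-4 and interleukin-13 signaling, was the steadiest member. It was at 132, 112 and 129 CPM in cyto-IL-15 tumors 9R, 13 and 20LL, at 119, 138 and 133 CPM in ADU-S100 tumors 17LL, 18R and 22LR, at 119.6, 144 and 188 CPM in combination tumors 20L, 22 and 28LL, and at 122, 132 and 121 CPM in HBSS tumors 19, 22R and 22LL. The highest tumor was 1.67-fold above the lowest, against 2.26-fold for Stat3 and 5.91-fold to 7.48-fold for the other members. From HBSS, Stat6 differed on the log2 scale by -0.01 ± 0.13 (cyto-IL-15), 0.06 ± 0.10 (ADU-S100) and 0.28 ± 0.19 (combination; adjusted p of 0.989, 0.773 and 0.450). Its nearest genes in pattern were Cdh23, Prss16 and Stk32c over 12 tumors (r = 0.968, 0.961 and 0.948), while without tumors 13 and 28LL they were Prss16, Ppp1r16b and Itgb7 (r = 0.859, 0.856 and 0.853 over 10 tumors). Stat6 lies 0.610 Mb from Stat2 on chromosome 10 (chr10:127642986-127660957 and chr10:128270576-128292849, both on the plus strand) and overlaps Nab2 on the other strand.

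Known targets of Stat6 changed in both directions. Of 9 targets, 1 was called higher and 3 lower in ADU-S100 than in HBSS tumors, with a median log2 fold change of -0.92. Over all genes tested, 3.53% were called there. Chil3, a macrophage secretory protein, rose by 4.06 ± 0.27 (adjusted p = 0.000695), to 19.0 to 36.1 CPM in ADU-S100 tumors, against 1.45 to 2.02 CPM in HBSS tumors. Retnla, another marker of alternatively activated macrophages, had a log2 fold change of -5.01 ± 0.72 (adjusted p = 0.00752), with 0 to 0.0550 CPM in ADU-S100 tumors and 0.634 to 1.02 CPM in HBSS tumors. The mannose receptor Mrc1 and the chemokine Ccl17 were the other two that fell. Markers of cells that express such genes also differed: of 8 macrophage and monocyte markers, which include Mrc1, Ly6c2 was called higher and Mrc1 lower, of 6 dendritic cell markers Flt3 was called lower and 0 had a higher mean, and of 4 B cell markers Cd79b was called lower. The macrophage sum was 1731 to 2278 CPM in ADU-S100 tumors, 1877 to 3774 CPM in combination tumors, 1092 to 3271 CPM in cyto-IL-15 tumors and 2052 to 2784 CPM in HBSS tumors. The dendritic cell sum was 12.1 to 18.2 CPM in ADU-S100, 14.4 to 26.0 CPM in combination, 13.7 to 28.7 CPM in cyto-IL-15 and 15.2 to 26.3 CPM in HBSS tumors, and no marker of these 3 lists was at 0 in any tumor. In the same comparison, 4 of 6 tested neutrophil markers were called higher. The part of all these cells in the levels of the Stat6 targets was not tested.

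**Figure D4:**
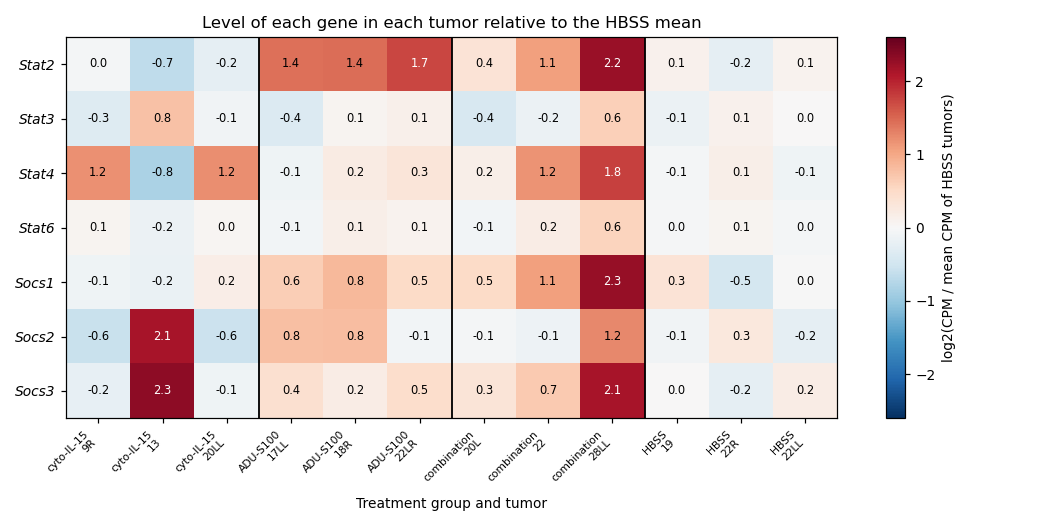
Log2 ratio of each member's CPM in each of 12 tumors to the mean CPM of the HBSS tumors; red is higher and blue lower, and vertical lines separate the groups. Stat2 is at 0.36 or above in all 6 tumors given ADU-S100, and the Socs2 and Socs3 rows are darkest in tumors 13 (2.15 and 2.32) and 28LL (1.25 and 2.14).

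Taken per kilobase of counted gene length, so that genes can be set side by side, the mean level over 12 tumors was 31.7 CPM per kb for Socs3, 30.1 for Stat6, 24.3 for Socs1, 23.5 for Stat2, 19.1 for Stat3, 1.29 for Socs2 and 1.21 for Stat4. Socs2 and Stat4 thus lay far below the other members. The order of the groups by mean was combination, ADU-S100, HBSS, cyto-IL-15 for Stat6 and Socs1, and ADU-S100, combination, HBSS, cyto-IL-15 for Stat2. Stat4 and Socs3 were ordered combination, cyto-IL-15, ADU-S100, HBSS, Socs2 was ordered cyto-IL-15, ADU-S100, combination, HBSS, and Stat3 cyto-IL-15, combination, HBSS, ADU-S100. Over the 7 members only the step to HBSS in Stat2 (from the combination) and in Socs1 (from ADU-S100) separated neighbours whose tumors did not overlap.

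Set against all genes, the members' median log2 fold change from HBSS was 0.18 for cyto-IL-15 (0.04 over all genes tested), 0.37 for ADU-S100 (0.03 over all) and 1.20 for the combination (0.01 over all). Without tumor 13 the members' median for cyto-IL-15 was -0.14, and without 28LL that for the combination was 0.52. No member and no gene was called for cyto-IL-15 or the combination against HBSS (0% of 18594 and 18565 genes), for combination against cyto-IL-15 or against ADU-S100, or for the cyto-IL-15 difference and the interaction over 12 tumors (0% each). At an unadjusted p under 0.05, those 6 comparisons held 706, 3374, 926, 802, 1520 and 461 genes, among them 0, 4, 2, 1, 2 and 0 members. DESeq2 on the same tumors called 115, 1156, 111, 4, 95 and 0 genes in them, of which Socs1, for the combination against HBSS (adjusted p = 0.0496), was the only member. Without tumor 13 edgeR called 179 genes for cyto-IL-15 against HBSS, and without 28LL it called 247 for the combination against HBSS, with no member in either. Against HBSS, tumors did not overlap for 0 members with cyto-IL-15 (10.6% of all genes), for Stat2 and Socs1 with ADU-S100 (31.5% of all genes), and for Stat2, Stat4, Socs1 and Socs3 with the combination (30.1% of all genes). Stat4 was separated there by only 3.42 against 3.40 CPM. Stat2 and Socs1 were also apart from cyto-IL-15 tumors in the ADU-S100 group (17.0% of all genes) and the combination group (12.7%), where their log2 differences were 1.75 ± 0.51 and 1.53 ± 0.47 (combination, adjusted p = 0.785 for both), or 1.05 and 0.84 without 28LL, and the ADU-S100 difference of Socs1 was 0.67 ± 0.18 (adjusted p = 0.496). No member was apart between combination and ADU-S100 tumors (10.9%). Comparisons with HBSS share the same 3 HBSS tumors. The interaction, which asks whether the 2 agents together differ from the sum of their separate differences, had its smallest p among the members for Socs1, at 0.83 ± 0.53 (adjusted p = 0.99968), and it was 0.17 without 28LL.

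**Figure D5:**
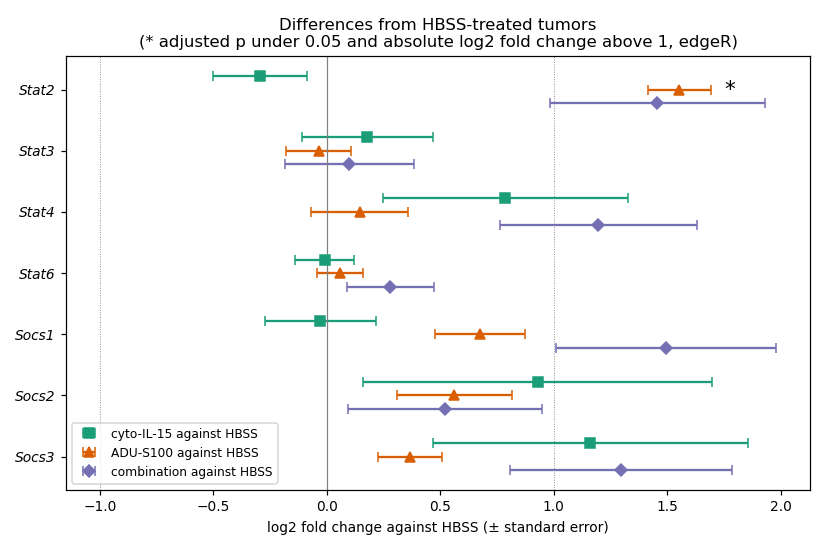
Log2 fold change against HBSS of the 7 members, with standard errors, from edgeR fits of 3 against 3 tumors; dotted lines mark the fold threshold of 1 in either direction and the asterisk a called gene. Only Stat2 with ADU-S100 (1.55) is called, while Stat2, Socs1, Stat4 and Socs3 exceed 1 with the combination, with errors of 0.43 to 0.49, and Socs3 exceeds 1 with cyto-IL-15 (1.16 ± 0.70).

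Small numbers of genes in the rest of the pathway were called in ADU-S100 against HBSS tumors, where 3.53% of all genes tested were called. Whether the shares called in these lists differ from that of all genes was not tested. Of 13 tested ligand genes of 15, 1 was called (Ifng), of 20 tested receptor genes of 21, 2 were called (Il12rb2 and Il2rb), and of 4 Janus kinases, 0 were called, with median log2 fold changes of 0.33, -0.02 and 0.05. The receptor count was 0 to 3 when a tumor was left out. Of 14 other negative regulators, which included Cish, Socs4, Socs5, Socs6 and Socs7 and the Ptpn and Pias genes, only Usp18, which blocks the type I interferon receptor, was called. It rose by 2.19 ± 0.24 (adjusted p = 0.00279) and was at 31.1 to 52.8 CPM in ADU-S100 tumors, 19.3 to 114 CPM in combination tumors, 6.20 to 8.29 CPM in cyto-IL-15 tumors and 6.74 to 10.7 CPM in HBSS tumors. Socs6, named after its values were seen, was lower at -0.47 ± 0.10 (adjusted p = 0.0280), within the fold threshold. Socs4, Socs5 and Socs7 were at -0.46, -0.50 and -0.47 (adjusted p = 0.0540, 0.110 and 0.0660). Of the 14 regulators, 7 had a higher mean, Cish among them (0.45, adjusted p = 0.279). Ifnb1, the interferon-β gene, named after its values were seen, had at most 26 reads in a tumor and was at 0.106 to 0.286 CPM in ADU-S100 tumors, 0.0290 to 0.344 CPM in combination tumors, 0 to 0.0964 CPM in cyto-IL-15 tumors and 0 to 0.0163 CPM in HBSS tumors.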

How the data were processed

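RNA of 12 TRAMP-C2 tumors, 3 per treatment, had been extracted from dissociated tissue and sequenced. The authors deposited 1 file of raw counts per tumor, in featureCounts layout, with 49315 Ensembl genes. The submitters' processing notes name GRCm38 and mm10 as builds and, as tools, STAR 2.5.2b, Trimmomatic 0.36, bcl2fastq 2.20, DESeq2 and Subread 1.5.2 with featureCounts. The strand setting, the treatment of multi-mapping reads and the annotation release are not given in the sources used here.

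Each pairwise comparison was fitted on its own 6 tumors, and contrasts over 12 tumors on all, with edgeR 4.0.16 in R 4.3.3 (TMM, filterByExpr with a minimum count of 10 and a minimum total of 15, robust quasi-likelihood F test, Benjamini-Hochberg adjustment over all tested genes); the 3 contrasts were the effect of ADU-S100, that of cyto-IL-15 and their interaction. The functions were tested on simulated data. The biological coefficient of variation, which with 3 tumors a group sets the precision, was 0.419, 0.242 and 0.387 for cyto-IL-15, ADU-S100 and the combination against HBSS, and 0.429 over 12 tumors. The labels call the tumors replicates but give them no replicate numbers and no batch, and some tumor labels share a leading number whose meaning is not given: 22 in HBSS tumors 22R and 22LL, ADU-S100 22LR and combination 22, and 20 in cyto-IL-15 20LL and combination 20L. In the paper, mice bearing such tumors were allotted at random to the treatment cohorts, so tumors of different groups came from different mice. Which mouse gave each of the 3 tumors of a group is not stated, and p-values measure only the spread between these tumors.

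Alternatives were DESeq2 1.42.0 on the same 6 and on all 12 tumors, edgeR with 12 tumors in one fit, RLE size factors, no filter, a fit without tumors 13 and 28LL, each tumor left out, and, for the permutation test on log2(CPM + 0.5), a smaller pseudocount and CPM of the library total. The members and the gene lists were chosen with earlier results of these data known. The genes named with values are the 7 members, up to 4 called genes of smallest p per list for ADU-S100 against HBSS, and the 3 genes most like each member; others are marked as named after their values were seen. Motifs were searched in RefSeq promoters of build GRCm38.p6. Some marker genes are not reported here.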

Additional observations from a re-analysis of the deposited data

How the results depend on the processing

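The count of members called for ADU-S100 against HBSS was 1 under every alternative except edgeR with 12 tumors in one fit, where it was 0 and 0 genes were called in all, against 667; DESeq2 called 1123 genes on the 6 tumors and 323 on 12, and leaving out any 1 tumor gave 325 to 624. DESeq2 called 1 member (Socs1, of 1156 genes) on 6 tumors and 2 (Stat2 and Socs1, of 1063 genes) on 12 for the combination against HBSS, 1 (Stat2) on 6 and on 12 for ADU-S100 against cyto-IL-15 (of 267 and 200 genes), 2 on 12 for the combination against cyto-IL-15 (of 440 genes), and 2 for the ADU-S100 contrast over 12 tumors (of 1073 genes). In the fit of 10 tumors, 32 genes were called for cyto-IL-15 and 316 for the combination against HBSS, none of them a member. For ADU-S100 against cyto-IL-15 the count was also 1 with no filter and in the fit of 10 tumors without 13 and 28LL, and 0 to 1 when a tumor was left out (0 to 206 genes). For the ADU-S100 contrast over 12 tumors it was 0 to 2 when a tumor was left out (14 to 605 genes). Without tumors 13 and 28LL the members' median was -0.14 for cyto-IL-15 and 0.51 for the combination against HBSS.

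In the fit of 10 tumors the sign of the log2 difference from HBSS turned for cyto-IL-15 in Stat3 (-0.22), Stat6 (0.059), Socs1 (0.041), Socs2 (-0.57) and Socs3 (-0.16), for the combination in Stat3 (-0.29) and Socs2 (-0.10), and for the cyto-IL-15 contrast in Socs3 (-0.0020). With a tumor left out, the ranges that crossed 0 were, for cyto-IL-15, Stat3 -0.21 to 0.37, Stat6 -0.067 to 0.067, Socs1 -0.22 to 0.18, Socs2 -0.56 to 1.33 and Socs3 -0.15 to 1.54, for ADU-S100, Stat3 -0.15 to 0.090, and for the combination, Stat3 -0.28 to 0.29 and Socs2 -0.090 to 0.77. For Stat2, no sign turned in any alternative of the comparisons with HBSS or with cyto-IL-15 tumors or of the ADU-S100 contrast.

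The pooled ADU-S100 difference of the permutation test, with a tumor left out, ranged from -0.22 to 0.092 in Stat3, -0.013 to 0.48 in Stat4, 0.065 to 0.23 in Stat6, 0.031 to 0.69 in Socs2 and 0.10 to 0.78 in Socs3, where exact p reached 0.045 for Stat6 without combination tumor 20L, and 0.04 for Socs2 and 0.035 for Socs3 without tumor 13. Without tumors 13 and 28LL it was -0.19 in Stat4, 0.47 in Socs2 and 0.51 in Socs3 (exact p = 0.0333 for the last pair). For Stat2 and Socs1 the exact p stayed at or under 0.02 in all 15 alternatives. Of 416 alternative values of member fold changes, 375 kept their sign and side of the threshold, as did 112 of 144 for genes of the lists. The cause of these shifts was not tested. No paired analysis was possible because replicate numbers were given in accession order and pair no tumors. Depth limits Stat4 and Socs2 most, since they had the lowest counts.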

Other observations

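Other genes of the pathway marked the same outlying tumors; they were named after their values were seen and were not tested as a group. Jak2, a kinase of growth hormone and interferon-γ receptors, was at 126 CPM in combination tumor 28LL and 115 CPM in cyto-IL-15 tumor 13, and at 64.0 to 88.1 CPM in the other tumors. Socs6, a family member outside the 7 genes, was at 139 CPM in tumor 13 and at 41.4 to 65.0 CPM elsewhere. The oncostatin M receptor gene Osmr was at 117 CPM in tumor 13 and at 27.1 to 75.8 CPM elsewhere. Cish, the closest relative of Socs2, was highest in tumor 28LL, at 31.0 CPM, against 6.77 to 16.8 CPM in the other tumors.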
